A study of Homo sapiens with 4 samples.

Results

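The 10 genes described here encode the machinery that carries a cell through G1, the phase before DNA synthesis. They are the D-type cyclins CCND1, CCND2 and CCND3, the E-type cyclins CCNE1 and CCNE2, the cyclin-dependent kinases CDK2, CDK4 and CDK6, and the kinase inhibitors CDKN1A and CDKN1B. They were taken by name from the 60721 genes of the count table. The set was chosen by function and with 1 measured value in view, the lower level of CCNE1 after TLN1 knockdown, so that value is given below as a description and without a test.

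RNA abundance was measured by polyadenylated RNA sequencing in HS578T cells, an established line from a human breast carcinoma. All cells received GFP. The control group (SCR, 2 libraries) also received a non-targeting RNA and the knockdown group (siTLN1, 2 libraries) an siRNA against TLN1, which encodes talin-1, the adaptor between integrins and actin. RNA was used at 1.6 µM and cells were collected after 48 h. The study used 1 line and, as far as the labels tell, 1 siRNA reagent whose sequence is not given in the sources used here, and the libraries of a group are called a and b.

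D-type cyclins bind CDK4 and CDK6, and these complexes phosphorylate the retinoblastoma protein. This frees E2F factors, which activate the E-type cyclin genes and the genes of DNA synthesis, and cyclin E with CDK2 then completes the step into S phase. CDKN1A (p21) and CDKN1B (p27) hold CDK2 complexes back. Attachment to matrix through integrins is known to be needed for entry into S phase in untransformed cells.

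The libraries held 31854322 and 34794346 counts in SCR and 36987264 and 46353297 in siTLN1. TLN1 had 868 and 874 CPM (counts scaled for library size) in SCR and 51.9 and 44.8 CPM in siTLN1, so the target was low in both libraries labelled siTLN1. The labels call the cells epithelial, but 7 of 10 epithelial markers were under 1 CPM in every library, with GRHL2 at 0, while all 10 mesenchymal markers were at 10 CPM or more. Summed epithelial markers were 123 to 153 CPM in SCR and 132 to 143 CPM in siTLN1, nearly all of it KRT18 and KRT8. Calls were made by the quasi-likelihood F test of edgeR, where the Benjamini-Hochberg adjusted p was under 0.05. Of 16137 genes 6.07% were called, 2.30% higher and 3.77% lower in siTLN1. The p-values measure the spread between these libraries, since nothing beyond the statement of 2 biological replicates says how they were prepared.

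Levels can be compared between genes only per length of exon, so they are given first as RPKM (CPM per kilobase of exon) in the SCR libraries. CCND1 was the highest of the 10, at 103 and 96.1 RPKM, above 98.0% of all tested genes. CDK4 followed at 39.9 and 39.7 RPKM. CDK6 had 16.7 and 15.1 RPKM, CDKN1A 15.1 and 15.4, CDK2 14.3 and 13.4, and CDKN1B 13.7 and 13.1. Within this middle group CDK6 and CDKN1A overlapped, as did CDK2 and CDKN1B, so the order inside these pairs is not resolved. CCND3 had 10.1 and 10.6 RPKM, CCNE2 6.65 and 5.80 RPKM, and CCNE1 5.36 and 5.20 RPKM. CCND2 was all but absent, with 0 and 1 counts in SCR and 1 and 2 counts in siTLN1.

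**Figure D1:**
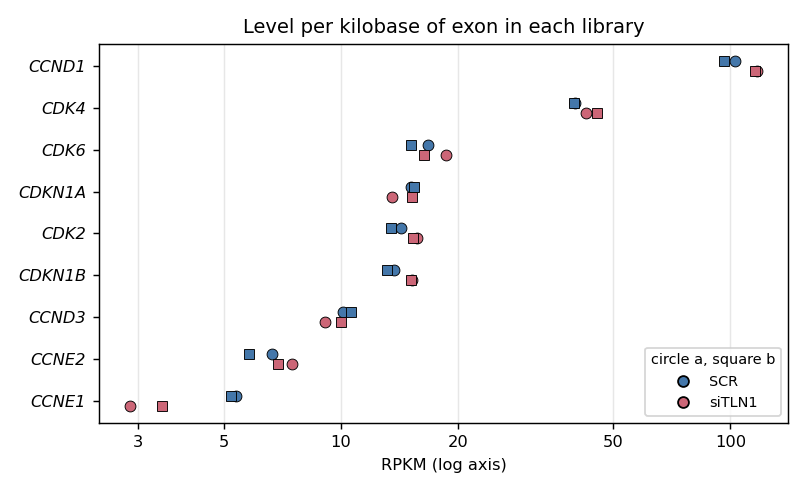
Level of 9 genes per kilobase of exon in each library (RPKM, log axis). Blue is SCR, red is siTLN1, circles are library a and squares library b. CCND1 lies near 100 RPKM and CCNE1 lowest, and CCND2, at 2 counts or fewer in every library, is left off.

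A count of 0 allows up to 3 counts, and at that limit CCND1 was at least 7805-fold above CCND2 per length in SCR library a. RPKM rests on the merged exons of every annotated transcript, so a gene that uses a short form is understated. The 12260 exon bases of CDK6, most of them 3′ UTR, make it the member most exposed to this. Exons opposite another gene can also lose reads in an unstranded count, which lowers RPKM. CDK4 (44.2% of exon bases) and CCNE2 (37.1%) are the members most exposed to that loss.

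The D-type cyclins are the sensors of growth factors and adhesion in this pathway. CCND1 (ENSG00000110092.4; GRCh38, chromosome 11, 69641156 to 69654474, plus strand) had 489 and 458 CPM in SCR and 557 and 551 CPM in siTLN1. Both siTLN1 libraries were above both SCR libraries, and the means were 473 ± 22.3 CPM (SD, n = 2) and 554 ± 4.55 CPM (SD, n = 2). The log2 fold change was 0.23 with a 95% interval of 0.026 to 0.43, and the adjusted p of edgeR's quasi-likelihood test was 0.188, so the difference did not pass the threshold across all genes. CCND3 (ENSG00000112576.12; chromosome 6, 41934933 to 42050357, minus strand) had 58.8 and 61.5 CPM in SCR and 52.9 and 58.0 CPM in siTLN1. Both siTLN1 libraries were lower, by a margin smaller than the gap between them, with a log2 fold change of −0.12 (interval −0.32 to 0.087, edgeR adjusted p 0.561). CCND2 (ENSG00000118971.8; chromosome 12, 4273762 to 4305353, plus strand) did not pass the filter on low counts and was not tested.

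CCND1 made up 91.0% and 90.1% of the summed D-type cyclin RPKM in SCR and 92.8% and 92.0% in siTLN1. CCND3 was nearly all of the rest, and CCND2 contributed next to nothing. Transcripts of D-type cyclins in these cells were thus mostly CCND1 in all 4 libraries, though CCND3 lay above 75.2% of all tested genes in SCR. Of the exon bases of CCND1, 10.4% lie opposite LTO1 and were counted without strand. LTO1 had 19.8 and 19.4 CPM in SCR and 20.7 and 19.4 CPM in siTLN1, and its groups overlapped.

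CDK4 and CDK6 are the partners of the D-type cyclins. CDK4 (ENSG00000135446.17; chromosome 12, 57747727 to 57756013, minus strand) had 123 CPM in each SCR library and 131 and 141 CPM in the siTLN1 libraries. The groups did not overlap, but the log2 fold change was 0.14 (interval −0.049 to 0.34, edgeR adjusted p 0.421). CDK6 (ENSG00000105810.9; chromosome 7, 92604921 to 92836594, minus strand) had 205 and 186 CPM in SCR and 228 and 200 CPM in siTLN1. Its groups overlapped, and library a was the higher one in both, with a log2 fold change of 0.13 (interval −0.078 to 0.34, edgeR adjusted p 0.514). Per length CDK6 made up 29.5% and 27.6% of the CDK4 and CDK6 sum in SCR and 30.4% and 26.4% in siTLN1, so the balance of the 2 kinases differed by less than the spread between libraries.

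The count of CDK4, like that of CCNE2 below, is less certain than those of the other members. As much as 44.2% of the exon bases of CDK4 lie opposite TSPAN31. Where a read fits both genes an unstranded count can lose it, so the CDK6 share above may be overstated. TSPAN31 itself had 12.7 and 15.3 CPM in SCR and 11.1 and 13.5 CPM in siTLN1.

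CDK2 (ENSG00000123374.11; chromosome 12, 55966781 to 55972789, plus strand), the partner of cyclin E, had 55.4 and 52.2 CPM in SCR and 61.0 and 59.3 CPM in siTLN1. Both siTLN1 libraries were higher, with a log2 fold change of 0.16 that did not pass (interval −0.040 to 0.36, edgeR adjusted p 0.378). PMEL lies opposite part of its exons (16.8% of its bases are shared with opposite-strand genes) but had at most 19 counts in a library.

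CCNE1 (ENSG00000105173.14; chromosome 19, 29811991 to 29824312, plus strand) is the value that led to this set. Its raw counts were 419 and 446 in SCR and 257 and 402 in siTLN1, from libraries of unequal depth. Scaled, it had 13.2 and 12.8 CPM in SCR and 7.06 and 8.55 CPM in siTLN1. The SCR libraries lay close together and both siTLN1 libraries well below them, with library a the lower. The siTLN1 mean of 7.81 ± 1.06 CPM (SD, n = 2) was 60.1% of the SCR mean of 13.0 ± 0.265 CPM (SD, n = 2), and the fit gave a log2 fold change of −0.73. No exon base of CCNE1 is shared with another gene of the annotation. In bulk RNA a smaller share of cells in the phase that expresses CCNE1 and less CCNE1 RNA per cell cannot be told apart.

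CCNE2 (ENSG00000175305.17; chromosome 8, 94879770 to 94896678, minus strand), its paralog, binds the same kinase. It had 29.2 and 25.5 CPM in SCR and 32.97 and 30.3 CPM in siTLN1, so both siTLN1 libraries were above both SCR libraries. Its log2 fold change was 0.21 (interval −0.016 to 0.44, edgeR adjusted p 0.292). INTS8 and another gene lie opposite 37.1% of its exon bases, so the CCNE2 count can lose reads as that of CDK4 can. INTS8, more abundant than CCNE2, had 67.3 and 66.5 CPM in SCR and 63.2 and 70.2 CPM in siTLN1, a log2 fold change of −0.0040.

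The paralogs therefore stood on opposite sides of 0. CCNE1 held 44.6% and 47.3% of the summed E-type cyclin RPKM in SCR and 27.7% and 33.5% in siTLN1. These shares may be overstated, since CCNE2 but not CCNE1 has exon bases opposite other genes. Per length CCNE1 had 5.36 and 5.20 RPKM in SCR and 2.87 and 3.48 RPKM in siTLN1, while CCNE2 had 6.65 and 5.80 RPKM in SCR and 7.50 and 6.90 RPKM in siTLN1. Since the value of CCNE1 was known beforehand, this shift in share is a description as well.

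**Figure D2:**
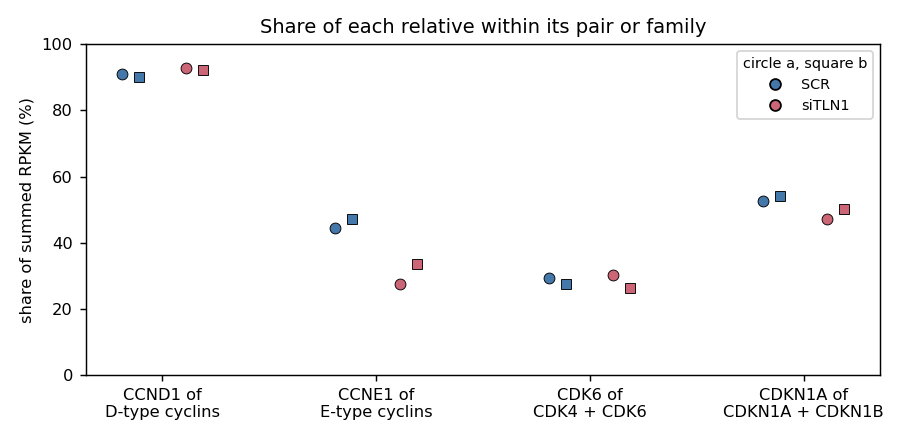
Share (%) of 1 gene in the summed RPKM of its relatives, per library (blue SCR, red siTLN1, circle a, square b). CCNE1 is at 44.6% and 47.3% of E-type cyclins in SCR and at 27.7% and 33.5% in siTLN1, while CCND1 is at 90.1% or more of D-type cyclins and the CDK6 share overlaps between groups.

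The inhibitors are the brakes of the pathway. CDKN1A (ENSG00000124762.13; chromosome 6, 36676460 to 36687339, plus strand) had 46.1 and 47.0 CPM in SCR and 41.1 and 46.4 CPM in siTLN1. One siTLN1 library lay within the SCR range, and the log2 fold change was −0.090 (interval −0.30 to 0.12, edgeR adjusted p 0.692). CDKN1B (ENSG00000111276.11; chromosome 12, 12715058 to 12722369, plus strand), a FOXO target whose protein is mainly controlled by degradation, had 35.0 and 33.7 CPM in SCR and 38.9 and 38.7 CPM in siTLN1. The 2 siTLN1 libraries almost coincided and lay above SCR, with a log2 fold change of 0.18 (interval −0.030 to 0.38, edgeR adjusted p 0.342). Per length the 2 inhibitors were near parity, with CDKN1A at 52.5% and 54.0% of their sum in SCR and 47.0% and 50.2% in siTLN1.

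**Figure D3:**
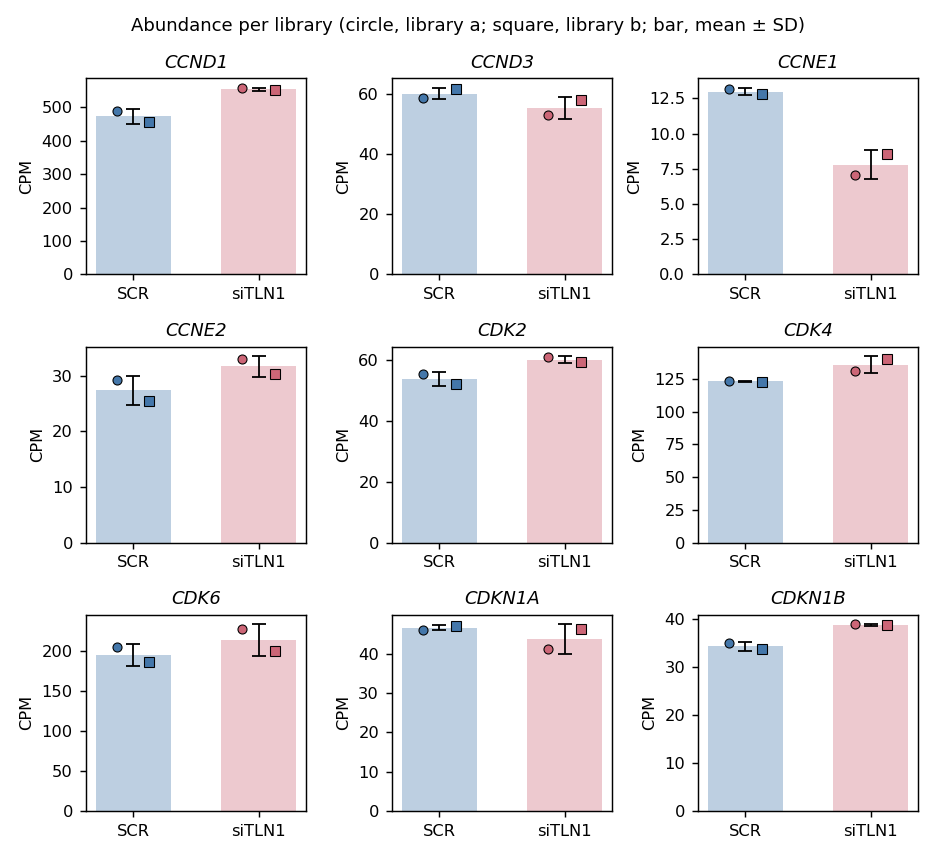
CPM of the 9 tested genes in each library (circle a, square b), with bars for the group mean and error bars for the SD over 2 libraries, on axes that start at 0. CCNE1 is the gene with a wide gap between groups (13.2 and 12.8 against 7.06 and 8.55 CPM), and for the others the fitted difference is at most 17.1% of the SCR level.

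Of the 8 tested genes other than CCNE1, 0 were called by edgeR's test, beside 6.07% of all tested genes. CCND1 was the 1 gene with an unadjusted p under 0.05 in edgeR, a level at which the share of all tested genes was not counted. DESeq2, limma-voom and limma-trend without a replicate term each called 0 of the 8. The count columns carry a tag that 1 library of each group shares, here called a or b, and nothing says what the tag stands for. With the tag as a replicate block, edgeR called 2 of the 8, CCND1 (log2 fold change 0.23, adjusted p 0.00361) and CCNE2 (log2 fold change 0.21, adjusted p 0.0272), both higher in siTLN1. That fit called 3709 of all 16137 tested genes. Without the block, edgeR's adjusted p ran from 0.188 for CCND1 to 0.692 for CDKN1A. Both siTLN1 libraries were above both SCR libraries for 5 of the 8 (CCND1, CCNE2, CDK2, CDK4 and CDKN1B), beside 23.9% of all tested genes. Of the 8 only CCND3 had both below, beside 24.6%. CCNE1 had both below too, but its fall was known when the set was chosen, so it is not set against that share. Across all tested genes 48.4% did not overlap in one direction or the other. The median log2 fold change was 0.15 over the 8 and 0.0033 over all tested genes.

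**Figure D4:**
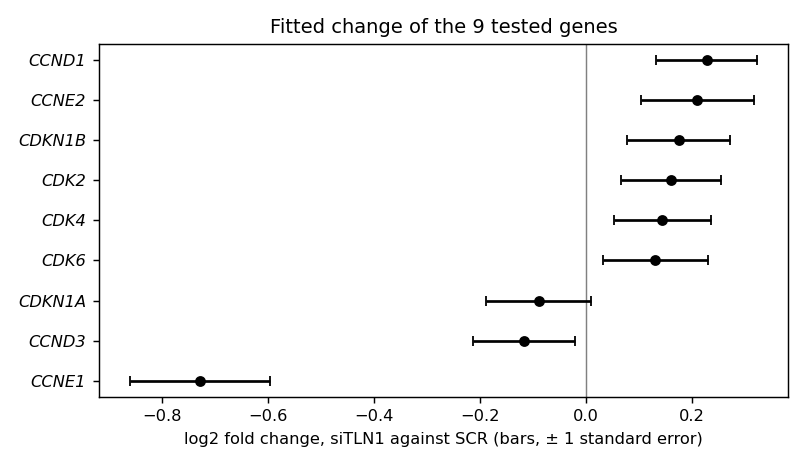
Fitted log2 fold change (siTLN1 against SCR) of the 9 tested genes with bars of 1 standard error. CCNE1 lies at −0.73, and the other genes lie between −0.12 and 0.23. The fall of CCNE1 was known when the set was chosen, so its bar is not to be read as a test.

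The start of CCNE1 is shown because it is the classical place where E2F acts on this gene. The window covers the 250 bases before and the 50 bases from the start site given by RefSeq (GRCh38.p14, chr19:29811741-29812040, plus strand), printed 5′ to 3′ with TCCCGC, the end of the usual E2F site, in capitals on either strand.

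CCNE1: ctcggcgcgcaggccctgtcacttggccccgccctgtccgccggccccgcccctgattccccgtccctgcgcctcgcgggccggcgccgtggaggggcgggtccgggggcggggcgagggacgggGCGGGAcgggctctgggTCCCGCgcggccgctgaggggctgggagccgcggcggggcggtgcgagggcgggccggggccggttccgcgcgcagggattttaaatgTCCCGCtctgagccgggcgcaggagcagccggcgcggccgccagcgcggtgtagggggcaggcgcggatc

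The word occurs 3 times, beginning 125, 108 and 20 bases before the start site, and 26.9% of 35116 RefSeq promoters of this length hold it at least once. Longer E2F words (TTTCCCGC or TTTGGCGC or TTTGCCGC or TTTCGCGC, either strand, each of which but the first lacks the shorter word) were not in this window and are in 3.31% of promoters. The GC box GGGCGG occurs 7 times, in a window of 81.0% G and C, and 45.0% of promoters hold it. TCCCGC is not particular to CCNE1 among the members searched. CCND3, CDK6, CDKN1A and CDKN1B each hold it 1 time in 1 window, and CDK4 does not hold it. All of these are matches of letters and not measured sites.

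Genes known for their activation by E2F in S phase were taken as a list. Of these 24 genes, all tested, 0 were called higher and 1 lower by edgeR, with 5 at an unadjusted p under 0.05. The median log2 fold change was −0.0091 against 0.0033 over all tested genes. The gene that fell was TK1, thymidine kinase, with 123 and 135 CPM in SCR and 90.1 and 97.3 CPM in siTLN1 (log2 fold change −0.47, SE 0.095, edgeR adjusted p 0.00721). Next by p came UNG, which removes uracil from DNA, at 30.4 and 28.0 CPM against 37.3 and 34.5 CPM (edgeR adjusted p 0.0984). Values above and below 0 were equal in number, 12 and 12. For this list and those below, the share of all tested genes at an unadjusted p under 0.05 was not counted. Counts at that level therefore cannot be read as an excess.

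Pocket proteins and E2F factors gave 0 calls among 13 genes (3 at an unadjusted p under 0.05 in edgeR, and 0 with DESeq2 or limma-voom). RB1, the retinoblastoma gene, had 93.8 and 77.5 CPM in SCR and 84.2 and 77.0 CPM in siTLN1. E2F1 had 56.0 and 53.9 CPM in SCR and 57.1 and 55.7 CPM in siTLN1, a log2 fold change of 0.038 (interval −0.16 to 0.24). The smallest p values belonged to E2F5, a repressor-type factor with a log2 fold change of 0.49, and TFDP1, the dimer partner of E2F, with one of −0.25 (edgeR adjusted p 0.118 and 0.160).

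Among the other CDK inhibitors 0 of 4 tested genes of 5 listed were called, with 0 at an unadjusted p under 0.05 in edgeR and 0 by DESeq2 or limma-voom. CDKN2A, which encodes the CDK4 and CDK6 inhibitor p16, had only 8 and 17 counts in SCR and 6 and 19 in siTLN1. Its neighbour CDKN2B (p15) had 25.5 and 31.9 CPM in SCR and 27.6 and 29.9 CPM in siTLN1. CDKN2C (p18), named after its value was seen, had 116 and 121 CPM in SCR and 123 and 119 CPM in siTLN1. CDKN2D (p19) had a log2 fold change of −0.17 (edgeR adjusted p 0.461), and CDKN1C (p57) had at most 14 counts in a library and was not tested.

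Later cyclins and kinases gave 0 calls among 4 tested genes of 6 listed, again with 0 at an unadjusted p under 0.05 in edgeR and 0 by DESeq2 or limma-voom. CCNA2, the cyclin of S phase and G2, had 144 and 123 CPM in SCR and 131 and 124 CPM in siTLN1. CCNB2, a mitotic cyclin, had a log2 fold change of −0.060 (edgeR adjusted p 0.796). CCNA1, with 1 count or fewer, and CDK3, with at most 9 counts and 91.2% of its exon bases shared with a read-through gene, were not tested.

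The enzymes that switch CDKs on or off held 1 call among 8 genes. At an unadjusted p under 0.05 in edgeR there were 5, with no share over all genes to set beside them. WEE1, the kinase that inhibits CDK1 and CDK2 by phosphorylation, rose from 49.6 and 41.0 CPM in SCR to 72.2 and 63.2 CPM in siTLN1. Its log2 fold change was 0.58 (SE 0.11, edgeR adjusted p 0.0051). The CDC25 phosphatases, which remove this phosphate, lay on both sides of 0 and did not pass. CDC25C had a log2 fold change of 0.28 (edgeR adjusted p 0.127). CDC25A and CDC25B, named after their values were seen, had log2 fold changes of 0.24 and −0.21 (edgeR adjusted p 0.189 and 0.192).

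The ubiquitin ligases and kinases that set the turnover of G1 cyclins and inhibitors gave 0 calls among 15 genes (2 at an unadjusted p under 0.05 in edgeR, and 0 with DESeq2 or limma-voom). FBXW7, the receptor that sends cyclin E to degradation, had 19.0 and 16.2 CPM in SCR and 14.4 and 14.0 CPM in siTLN1, lower in both libraries with a log2 fold change of −0.31 (edgeR adjusted p 0.144). SKP2, which targets p27, had 59.3 and 50.5 CPM in SCR and 61.9 and 55.2 CPM in siTLN1. CUL4B, a ligase scaffold, had a log2 fold change of −0.22 (edgeR adjusted p 0.170).

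Transcriptional regulators of the 10 genes held 1 call among 18 tested. At an unadjusted p under 0.05 in edgeR there were 7, again with no share over all genes to set beside them. MAX, the obligate partner of MYC at E boxes, fell from 38.3 and 36.4 CPM in SCR to 22.7 and 27.7 CPM in siTLN1 (log2 fold change −0.56, SE 0.11, edgeR adjusted p 0.0058). Opposite-strand genes share 16.1% of its exon bases. MYC itself had 120 and 129 CPM in SCR and 123 and 127 CPM in siTLN1, a log2 fold change of 0.0053 (interval −0.19 to 0.20). FOXO3, an activator of CDKN1B, had a log2 fold change of 0.24 (edgeR adjusted p 0.192), and KLF4, an activator of CDKN1A, one of 0.31 (edgeR adjusted p 0.0672).

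The calls of WEE1, MAX and TK1 rested in part on siTLN1 library a. Without it their log2 fold changes were 0.48, −0.43 and −0.41, and the adjusted p of the same edgeR test was 0.0846, 0.146 and 0.125. In that fit siTLN1 is a single library assumed to vary as the SCR libraries do. In all, 3 of the 86 tested genes in the 7 lists were called, 1 higher and 2 lower, beside 6.07% of all tested genes.

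**Figure D5:**
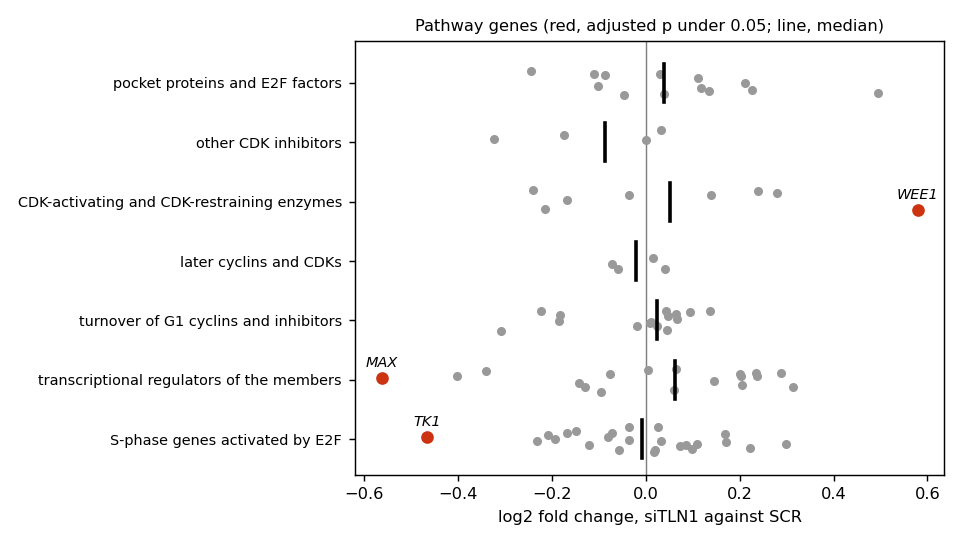
Log2 fold change (siTLN1 against SCR) of each tested gene in the 7 lists, 1 row per list, with the median as a black line. WEE1 (0.58), MAX (−0.56) and TK1 (−0.47) are the red points past the threshold, and the medians lie between −0.087 and 0.062.

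The start of CDK4 is shown because CDK4 is a known target of MYC with MAX, which bind the E box CACGTG. The window is again 250 bases before and 50 from the RefSeq start site (GRCh38.p14, chr12:57752261-57752560, minus strand), with the E boxes in capitals.

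CDK4: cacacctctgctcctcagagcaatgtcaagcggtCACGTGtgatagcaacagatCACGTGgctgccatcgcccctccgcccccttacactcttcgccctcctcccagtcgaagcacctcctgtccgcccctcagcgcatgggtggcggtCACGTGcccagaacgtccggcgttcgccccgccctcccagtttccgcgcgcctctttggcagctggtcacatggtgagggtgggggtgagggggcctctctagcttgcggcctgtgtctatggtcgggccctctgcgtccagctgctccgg

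It holds 3 E boxes, beginning 216, 196 and 101 bases before the start site, and 7.26% of RefSeq promoters hold at least 1. RefSeq windows of 6 members were searched, and none of CCND1, CCND2, CCNE2 or CDK2. CDK6 has 1 E box, at base 31 counted from the start site in 1 of its 2 windows. CCND3, CCNE1, CDKN1A and CDKN1B have 0. The log2 fold changes were 0.14 for CDK4, 0.13 for CDK6 and −0.56 for MAX, and whether they are related was not tested.

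In these libraries, genes with the 7-base word GACAACA in the 3′ UTR had a median log2 fold change of −0.098 (941 genes), against 0.013 for the 11922 genes without it (GENCODE 29, 1 transcript per coding gene, TLN1 left out). The word was picked from these same data, so this difference is no support for it. The word is used here only to say which transcripts carry it. The sites in CDK6 and in 2 of the called genes are shown with 11 bases on either side and the word in capitals.

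CDK6, 3′ UTR: actttcgttgtGACAACAttgattaggtg
MAX, 3′ UTR: agaagctcttgGACAACAgctctcgttct
MAX, coding: acccctcctcaGACAACAgcctctacacc
TK1, coding: ctgccgggccgGACAACAaagagaactgc

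CCNE1 lacked the word in the coding sequence and 3′ UTR of the transcript chosen, and 0 of its 5 coding transcripts held it in the 3′ UTR. CDK6 was the only one of the 10 members with a copy, 1 in a 3′ UTR of 10219 bases, and its log2 fold change was above 0. MAX held a copy in the 3′ UTR of 6 of 14 coding transcripts, TK1 in that of 1 of 5, and the chosen transcript of WEE1 held 0. The word was not confined to called genes. Over all tested coding genes 7.32% held it in the 3′ UTR. Among uncalled genes of the lists, CDK7 had 1 copy in the 3′ UTR, and RB1 and E2F8, for example, had 1 copy each in the coding sequence. Genes with the word have longer 3′ UTRs (a median of 2964 bases against 894), and whether the word bears on any of these genes was not tested.

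The genes closest to CCNE1 in pattern were ranked by Euclidean distance between log2 CPM profiles, each centred on its mean over the 4 libraries. Among 10429 other genes with a mean CPM of at least 5, the nearest was GUCY1B1, a subunit of soluble guanylate cyclase, at a distance of 0.058. It had 10.8 and 10.5 CPM in SCR and 5.52 and 6.62 CPM in siTLN1, low in both siTLN1 libraries and lowest in library a as CCNE1 was. DLX1, HNRNPUL1, BNIP3L and LRRFIP2 followed at distances of 0.077 to 0.083, with log2 fold changes of −0.66, −0.73, −0.75 and −0.66. With 4 libraries such likeness says little more than that a gene was lower in siTLN1 by a similar amount.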

How the data were processed

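The members and lists were chosen with earlier results of these data known. The deposited gene counts are raw and come from featureCounts 2.0.0, run on GENCODE 33 in paired mode with no strand option, per the file headers. STAR 2.7.9a on GRCh38 and edgeR 3.34.1 are named in the submitters' processing notes. Gene lengths are a further column of the deposited table, in bases of merged exon. The authors also deposited log2 CPM values, whose making the sources used here do not describe, and these were used for the limma-trend alternatives and for a check of whether same-numbered replicates deviate together. Count columns name their group and not a labelled replicate, so they were mapped to groups and called library a and b, by a tag that 1 column of each group shares. All 10 members were matched to symbols by Ensembl ID.

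Genes were filtered with filterByExpr (minimum count 10, minimum total 15), which left 16137, and 99.9% of counts. Libraries were scaled by TMM and compared with edgeR 4.0.16 in R 4.3.3 (estimateDisp, robust glmQLFit, glmQLFTest), with Benjamini-Hochberg adjustment over every gene tested, at 0.05. Standard errors follow from the quasi-likelihood F statistic. On simulated data for this comparison (15850 genes) 196 of 200 genes given a 2-fold difference were called, and 6 others. Those 200 were picked among better counted genes, with the same dispersion for every gene and no tag effect. Smaller differences, such as those of the members other than CCNE1, were not simulated, so how often they would be called is not known. Alternatives were RLE scaling, total counts, no filter, a mean of 10 counts, the legacy method, DESeq2 1.42.0, limma 3.58.1 (voom and trend), a replicate block (on the log2 CPM and, added after seeing the data, on the counts) and each library left out. With 2 libraries per group an exact permutation test cannot go below p = 0.333.

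Named genes were the 10 members, TLN1, 10 pathway genes named whatever their values (1 of them is not reported here), the called genes of each list and, where fewer than 2 were called, the 2 with the smallest p, and the 5 genes nearest to CCNE1 (0.5 added to CPM before log2). Motifs were searched in RefSeq windows and GENCODE 29 transcripts, a release other than that of the counts.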

Additional observations from a re-analysis of the deposited data

How the results depend on the processing

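For the 8 tested members other than CCNE1, no sign and no call changed among 64 values from fits with all 4 libraries and no block, nor among 32 with 1 library left out. The log2 fold change of CCNE1, which has no call, ran from −0.74 to −0.71 with all 4 libraries and from −0.88 to −0.60 with 1 left out. Over all genes, calls numbered 980, between 663 and 1253 under the alternatives with 4 libraries and no replicate term, and without a filter on low counts 389 were lower in place of 609. With 1 library left out, 347 to 1116 genes were called, 103 to 503 higher and 244 to 613 lower, the fewest each time without siTLN1 library a. Leaving out 1 library gave 0 to 1 calls among pocket proteins and E2F factors, 0 to 2 among the enzymes acting on CDKs, 0 to 2 among regulators and 0 to 1 among S-phase genes, and scaling by total counts gave 2 among regulators. A replicate block was fitted in 2 ways, by replicate number on the deposited log2 CPM (limma-trend) and, chosen after seeing the data, by the shared column tag on the counts (edgeR). These called 3645 and 3709 of 16137 genes, 1709 and 1733 higher and 1936 and 1976 lower. Both gave 4 calls among the 13 pocket proteins and E2F factors and 5 among the 8 enzymes acting on CDKs. They gave 3 among the 15 turnover genes, 9 among the 18 regulators and 7 among the 24 S-phase genes. Under the blocks CCND1 (0.23 in both, adjusted p 0.00334 and 0.00361) and CCNE2 (0.21 in both, adjusted p 0.0289 and 0.0272) were called, and no other call of the members changed. Deviations correlated between the groups at 0.19 over 16137 genes by replicate number and 0.31 by column tag, and at 0.53 and 0.54 over the 10500 and 10486 genes at 5 CPM or more. A shared tag and these correlations leave pairing possible, but there are only 2 pairs and no source used here says what the tag or the number marks. DESeq2 gave no adjusted p for 3755 genes. CCND2 entered a test only without the filter, at 2 counts or fewer, where depth is the limit.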
